A study of Mus musculus with 2 samples.

Results

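The miR-17-92 polycistron is a primary transcript from which several miRNA hairpins are cut, and its mature miRNAs were followed here in c-Kit+ Sca1+ Lineage- (KSL) cells sorted from bone marrow, a population of blood stem cells and multipotent progenitors. Members were all mature arms of miR-17, miR-18a, miR-19a, miR-20a, miR-19b and miR-92a that mouse miRNA spots of the array name. These were 14 of the 1247 miRNAs on the array, with 36 of 3105 probes and 560 of 49880 miRNA spots, and 7 of the 14 are the arms usually counted as the cluster's products: mmu-miR-17-5p, mmu-miR-17-3p, mmu-miR-18a-5p, mmu-miR-19a-3p, mmu-miR-20a-5p, mmu-miR-19b-3p and mmu-miR-92a-3p, named below without the species prefix. The KO sample was KSL RNA from adult C57/BL6 mice of genotype CreERT, Tif1bf/f, and the WT sample was KSL RNA of genotype CreERT, Tif1bw/w from the same background, so both carried the CreERT transgene. Tif1b (Trim28, KAP1) is a corepressor recruited by zinc finger proteins to silence retroelements and genes. The promoter of the CreERT transgene, the treatment that induced recombination and the number of animals behind each sample are not given in the sources used here, and since a miRNA array has no probe for Tif1b, the deletion itself could not be checked. There was 1 Agilent 1-colour array per genotype and no replicate, so every difference below describes these 2 arrays and no p-value is given.

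As background, RNA polymerase II transcribes the cluster within the host gene Mir17hg, Drosha cuts out the hairpins and Dicer releases the mature arms. MYC is a direct activator of the transcript. Its miRNAs fall into groups that share a seed, the stretch near the 5′ end that pairs with targets. The miR-17 and miR-20a group is known to target the cell cycle inhibitor Cdkn1a and the proapoptotic gene Bcl2l11. In mice, loss of the cluster blocks B cell development at the transition from pro-B to pre-B cells. In human cells, the RNA-binding protein HNRNPA1 promotes processing of the miR-18a hairpin, so the arms of 1 transcript need not change together.

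In the RefSeq annotation of GRCm38.p6 the 6 hairpins lie on the plus strand of chr14:115043671-115044506, a span of 836 bases, in the order Mir17, Mir18, Mir19a, Mir20a, Mir19b-1 and Mir92-1. RefSeq sequences were found for 13 of the 14 members, all but miR-19a-5p. The 7 usual products are printed in transcript order to show which of them share a seed, with the seed (bases 2 to 8) in capitals and the rest in lower case.
miR-17-5p: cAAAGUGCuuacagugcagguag
miR-17-3p: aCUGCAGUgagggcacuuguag
miR-18a-5p: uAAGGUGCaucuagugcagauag
miR-19a-3p: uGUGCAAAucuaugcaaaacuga
miR-20a-5p: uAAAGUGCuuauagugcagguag
miR-19b-3p: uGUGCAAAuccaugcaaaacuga
miR-92a-3p: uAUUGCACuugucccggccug

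The seed AAAGUGC is shared by miR-17-5p and miR-20a-5p, and by miR-106a-5p, miR-20b-5p, miR-106b-5p and miR-93-5p, which other clusters encode. The seed of miR-18a-5p, AAGGUGC, differs from it at G4A, with positions counted from 1 at the 5′ end, and is shared by miR-18b-5p. miR-19a-3p and miR-19b-3p share the seed GUGCAAA, and miR-92a-3p shares AUUGCAC with miR-25-3p, miR-32-5p, miR-363-3p and miR-92b-3p. Outside the seed the relatives are close: miR-19a-3p and miR-19b-3p differ by U11C alone, miR-17-5p and miR-106a-5p by U10A alone, and miR-20a-5p and miR-20b-5p by U1C and U10C. Mature miR-19b-3p and miR-92a-3p are also encoded, with identical sequence, by Mir19b-2 and Mir92-2 in the miR-106a-363 cluster on the minus strand of chromosome X (chrX:52741991-52742013 and chrX:52741854-52741874). A signal for either one can therefore come from both loci, while the mature sequences of miR-18a-5p, miR-19a-3p and miR-20a-5p are encoded on chromosome 14 alone.

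The probes of these 7 arms are complementary to the miRNA from its 3′ end inwards, over 12 to 21 bases, so close relatives are told apart by few bases. The longer probe of each closely related pair is printed here, with capitals at the bases that do not pair with the named relative.
miR-19a-3p probe, against miR-19b-3p: tcagttttgcatAgatttgca
miR-19b-3p probe, against miR-19a-3p: tcagttttgcatGgatttgc
miR-20a-5p probe, against miR-20b-5p: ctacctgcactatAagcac
miR-20b-5p probe, against miR-20a-5p: ctacctgcactatGagcact
miR-18a-5p probe, against miR-18b-5p: ctaTcTgcactagatgcac
miR-92a-3p probe, against miR-25-3p: cagGccgGgacaagtgc
miR-17-5p probe, against miR-106a-5p: ctacctgcactgt

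Both miR-19 probes have 1 mismatch to the other miR-19, and the miR-20a-5p probes have 1 mismatch to miR-17-5p and 1 to miR-20b-5p. Binding of a relative to a probe was not tested. The miR-17-5p probe has no mismatch to miR-106a-5p, and the array file lists both names for it, so these 2 miRNAs cannot be told apart by it.

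A probe's signal was the mean processed intensity of its spots, and it counted as measured when more than 50% of its spots were well above background. Each array's signals were scaled to its 75th percentile, 213 on KO and 487 on WT, taken over the 113 probes that both arrays measured, and put on the log2 scale. A difference is KO minus WT on this scale. Its spot SD is the SD of the log2 ratio over spot positions that both arrays share. It is technical and gives the spread of single positions, not the error of a value averaged over them. Brightness depends on the probe, so a higher level of 1 miRNA than of another is not read as more of it. The KO array was dimmer, with a mean miRNA spot signal of 9.14 against 21.9 on the WT array, and 78 miRNAs were measured on KO and 100 on WT. Of the 72 measured on both, the median difference was 0.30.

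Of the 14 members, 5 were measured on both arrays, miR-17-3p was measured on WT only and 8 on neither. Of these 5, miR-18a-5p, miR-19a-3p and miR-19b-3p were at least 2-fold lower on the KO array, and miR-20a-5p and miR-92a-3p were within 2-fold. Over all 72 miRNAs with a difference, the share at least 2-fold lower was 13.9%, and the share at least 2-fold higher was also 13.9%; no member was among the higher. The members' median difference was -1.05, against 0.37 over the 67 other miRNAs. miR-92a-3p, at 0.51, stood apart from the other 4, whose median was -1.11.

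**Figure D1:**
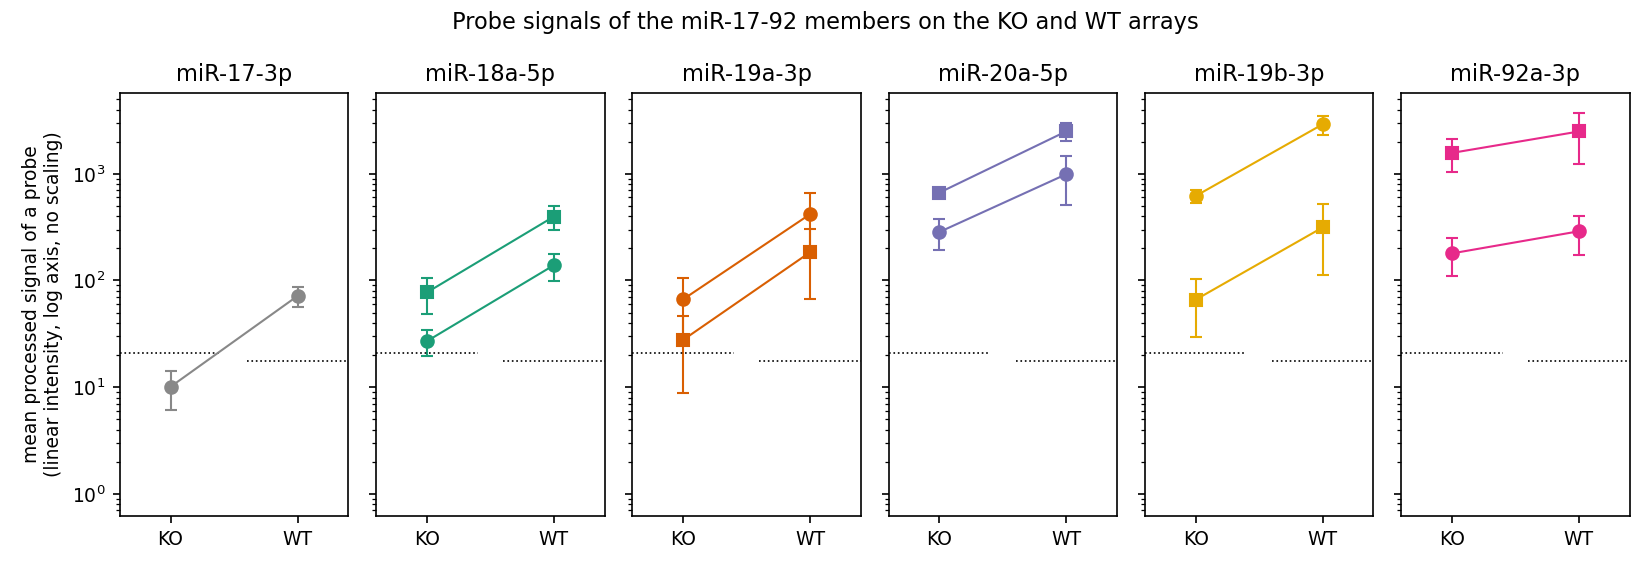
Mean processed signal (log axis, linear intensity without scaling) of each probe on the KO array (left of each panel) and the WT array, for the 6 members measured on at least 1 array. Bars are the SD over spots, dotted lines the lowest measured probe of each array; the drop on the KO side is small for miR-92a-3p, and the KO point of miR-17-3p, at 10.1, lies under the dotted line.

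miR-17 opens the transcript, and its main product, miR-17-5p (chr14:115043684-115043706), was not measured on either array. Its probes of 12 and 13 bases had signals of -6.67 and -5.02 on KO, against -4.67 and 3.03 on WT, with 0% of spots well above background. Short probes of all miRNAs were measured less often than long ones: 2.69% on KO and 3.07% on WT of the 521 probes of up to 13 bases, 1.39% on KO and 2.03% on WT of those of 14 or 15 bases, and 8.83% on KO and 11.9% on WT of those of 20 or more. The part of probe length in the missing miR-17-5p signal was not tested, and no level is given for miR-17-5p or for miR-106a-5p, which the same probes match.

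The opposite arm, miR-17-3p (chr14:115043721-115043742), has another seed and was the only member seen on 1 array alone. Its probe of 15 bases had a signal of 10.1 ± 3.97 on KO (SD, 18 spots), where 0% of spots were well above background, against 71.6 ± 15.04 on WT (SD, 15 spots), where all were. miR-17-3p was thus at least 1.49-fold lower on KO, taking the lowest measured KO probe, 21.1, as the limit. Its second probe, of 14 bases, was measured on neither array, with -2.12 on KO and 14.4 on WT.

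miR-18a-5p, the only measured arm of its seed group, comes from chr14:115043867-115043889. Its 2 probes had signals of 26.9 ± 7.44 and 77.1 ± 28.3 on KO, against 139 ± 39.6 and 397 ± 101 on WT (SD over 17 to 20 spots). The KO signals were lower for both probes, which gave differences of -1.17 each. The member's difference was -1.17 with a spot SD of 0.36 over 35 positions, or 2.25-fold lower, and all 35 positions were lower than the scaling ratio alone would give. Among the 5 members it is the one whose difference exceeded 2 spot SDs on this scale, which depends on the scaling factor. Without scaling, the differences of miR-19b-3p (-2.24, spot SD 0.67) and miR-20a-5p (-1.86, spot SD 0.47) exceeded 2 spot SDs as well. Relative to the median miRNA, miR-19b-3p (-1.35) and miR-20a-5p (-0.97) also exceeded 2 spot SDs, by a small margin.

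The miR-19 group is the part of the cluster that was needed for its effect on Myc-driven lymphoma in mice. miR-19a-3p (chr14:115044048-115044070) had probe signals of 66.5 ± 38.8 and 27.7 ± 18.9 on KO, against 418 ± 241 and 184 ± 117 on WT (SD, 20 spots each). Its difference of -1.5 was the lowest of the members and number 3 from the lowest of all 72 miRNAs, with a spot SD of 1.84. The middle 50% of its 40 spot positions lay between -1.94 and -1.01, and 36 positions were below the scaling ratio.

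miR-19b-3p (chr14:115044358-115044380 and the copy on chromosome X) had probe signals of 618 ± 86.2 and 66.0 ± 36.6 on KO, against 2909 ± 604 and 314 ± 203 on WT (SD over 16 to 20 spots). The difference was -1.05 (spot SD 0.67), with 34 of 36 positions below the scaling ratio. The brighter probe alone gave -1.04 with a spot SD of 0.18, and the dimmer -1.06 with a spot SD of 0.88. Both miR-19 members were thus lower on KO, and they differed from each other by -0.45 (miR-19a-3p minus miR-19b-3p), well within their combined spot SD of 1.95.

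miR-20a-5p (chr14:115044183-115044205) is the measured member of the miR-17 seed group. Its probes had signals of 284 ± 93.4 and 665 ± 48.2 on KO, against 991 ± 486 and 2502 ± 457 on WT (SD over 16 to 20 spots). It was lower on KO by both probes, at -0.61 and -0.72, and its difference was -0.66 (spot SD 0.47), or 1.58-fold lower. Of its 34 positions 29 were below the scaling ratio.

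miR-92a-3p (chr14:115044476-115044496 and the copy on chromosome X), the last product of the transcript, is known in mice as a repressor of integrin subunit alpha 5 in endothelium. Its probes had signals of 179 ± 68.2 and 1568 ± 539.9 on KO, against 289 ± 115 and 2490.4 ± 1245 on WT (SD over 18 to 20 spots). The KO signals were lower, but by less than the scaling ratio, and both probes gave positive differences, 0.50 and 0.53. The difference was 0.51 (spot SD 0.94), or 1.43-fold higher, and 33 of 37 positions lay above the scaling ratio; the sign rests on the scaling, since the difference was -0.68 without it. Relative to the median miRNA, itself at 0.30, it was 0.21. The median over its positions was 0.38, against medians of 0.13 to 0.46 by range of array rows for all miRNAs measured on both arrays.

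**Figure D2:**
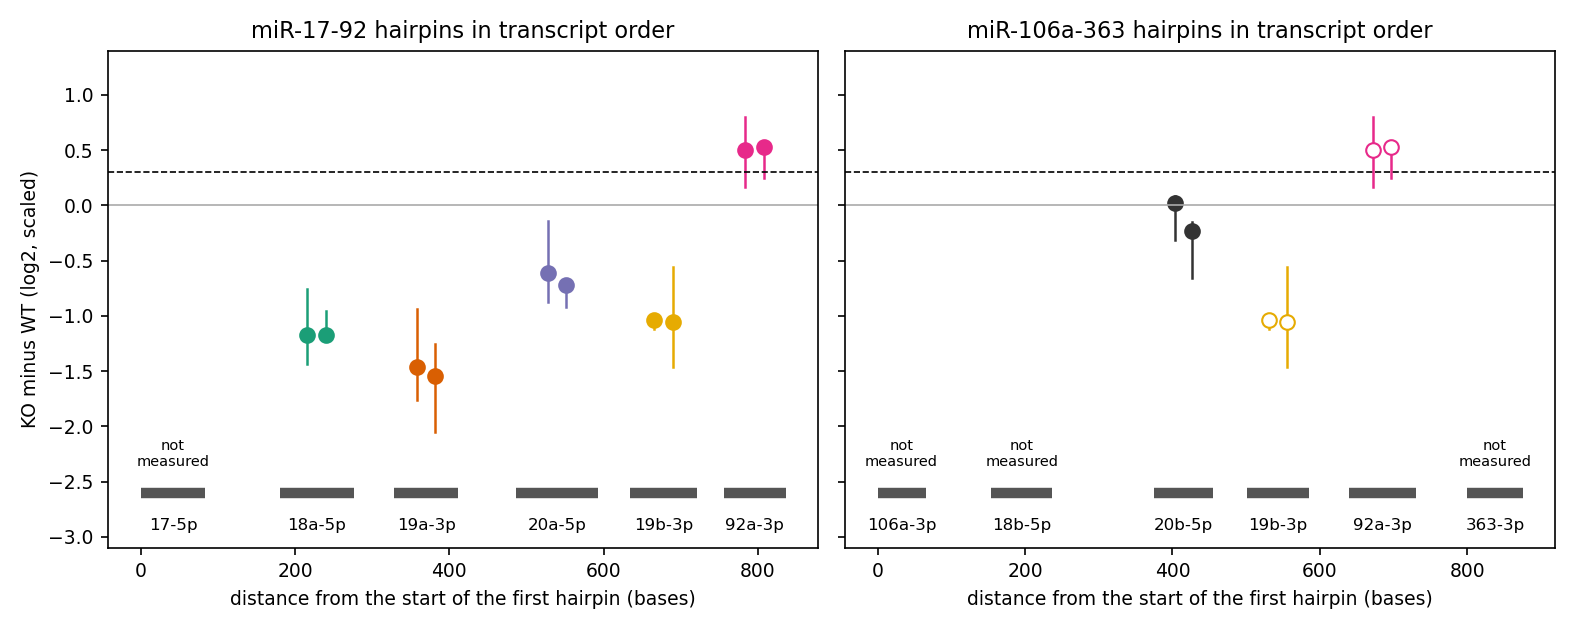
KO minus WT difference (log2, scaled) of each measured probe against the distance of its hairpin from the start of the first hairpin, for miR-17-92 (left) and miR-106a-363 (right); vertical lines span the middle 50% of spot positions, the dashed line is the median miRNA, and open circles repeat miRNAs that both clusters encode. The 4 hairpins from Mir18 to Mir19b-1 lie between -1.54 and -0.61, and only the miR-92a-3p probes, at 0.50 and 0.53, lie above the dashed line.

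By position, the differences ran -1.17 (miR-18a-5p), -1.5 (miR-19a-3p), -0.66 (miR-20a-5p), -1.05 (miR-19b-3p) and 0.51 (miR-92a-3p). The value at the hairpin nearest the 3′ end was thus the highest, and the 4 before it showed no steady slope. miR-19b-3p and miR-92a-3p are also encoded on chromosome X, so their values cannot be assigned to the chromosome 14 hairpins alone. The probes of 1 member differed from each other by 0.0032 to 0.11, against a range of 2.01 between members. miR-92a-3p exceeded miR-18a-5p by 1.69 (combined spot SD 1.01), miR-19b-3p by 1.56 (1.15) and miR-20a-5p by 1.18 (1.05). The middle 50% of its spot positions, 0.25 to 0.78, did not overlap that of miR-20a-5p, -0.88 to -0.54. miR-92a-3p exceeded miR-19a-3p by 2.01, within a combined spot SD of 2.06. The middle 50% of the miR-19a-3p positions, -1.94 to -1.01, did not overlap that of miR-92a-3p either. Neighbours in the order miR-19a-3p, miR-18a-5p, miR-19b-3p and miR-20a-5p differed by less than the spot SD of either one. The middle 50% of positions overlapped for these neighbours, except for miR-19b-3p (-1.14 to -0.89) and miR-20a-5p (-0.88 to -0.54).

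By seed family, the means were -0.66 for the miR-17/20 family, -1.17 for miR-18, -1.28 for miR-19 and 0.51 for miR-92, of which only the miR-19 mean rests on 2 measured members. Relatives of the same seed encoded elsewhere were set beside them. Of 17 arms of miR-106a, miR-18b, miR-20b, miR-363, miR-106b, miR-93, miR-25, miR-32 and miR-92b, 4 were measured on both arrays and 13 on neither, and the median of the 4 was -0.11.

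miR-20b-5p, of the chromosome X cluster, had probe signals of 138 ± 33.9 and 304 ± 70.6 on KO, against 310.3 ± 144 and 815 ± 446 on WT, a difference of -0.11 (spot SD 0.58). miR-20a-5p was lower than this close relative by 0.56 (combined spot SD 0.74), which is within the spread of spots. Of the miR-106b-25 cluster, miR-106b-5p was at -1.22 (spot SD 1.18) with probe signals of 107 ± 13.2 and 25.9 ± 15.4 on KO, against 551 ± 112 and 142 ± 106.1 on WT. miR-93-5p was at -0.11 (spot SD 1.36) with 86.4 ± 47.6 on KO and 214 ± 142 on WT. miR-25-3p, the relative of miR-92a-3p, was at 0.042 (spot SD 1.32) with 159.9 ± 58.7 on KO and 355 ± 159 on WT.

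Members of the seed AAAGUGC measured on both arrays thus ranged from -1.22 to -0.11, and those of AUUGCAC were 0.042 and 0.51. miR-92a-3p exceeded miR-25-3p by 0.47 with a combined spot SD of 1.62.

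**Figure D3:**
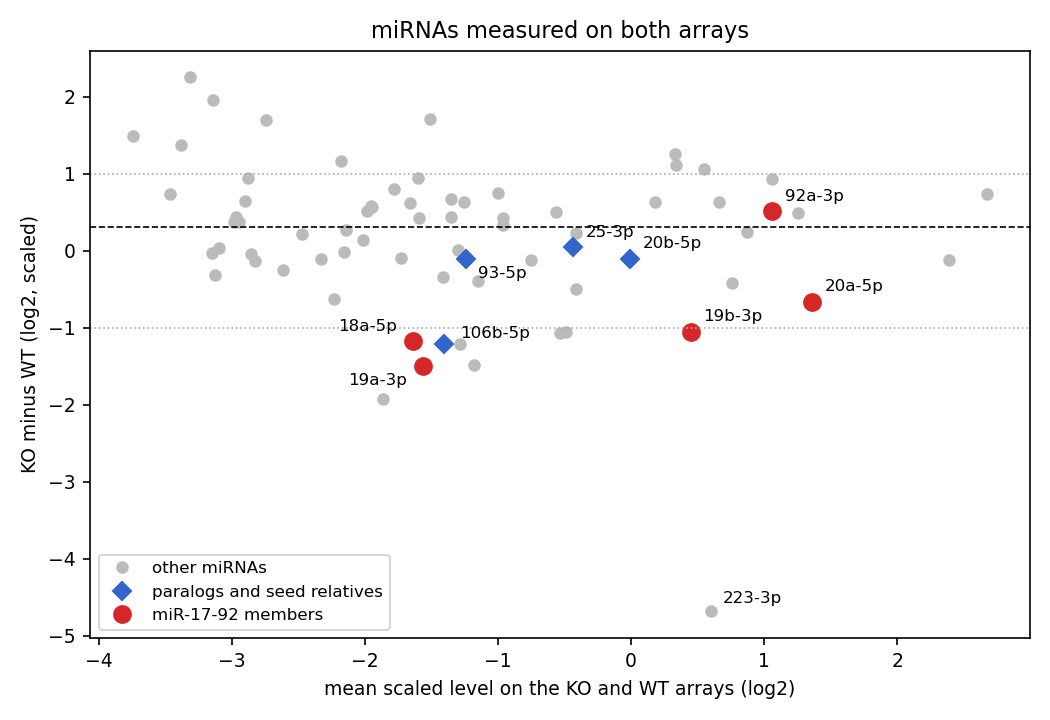
KO minus WT difference against the mean scaled level over both arrays (both log2) for the 72 miRNAs measured on both; the dashed line is the median of 0.30 and dotted lines mark 2-fold. Of the 5 members (large circles), 4 lie below the dashed line and miR-92a-3p above it, and miR-106b-5p is the relative (diamonds) that lies among the low members.

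The 8 members measured on neither array were miR-17-5p and 7 opposite arms: miR-18a-3p, miR-19a-5p, miR-20a-3p, miR-19b-1-5p, miR-19b-2-5p, miR-92a-1-5p and miR-92a-2-5p. Their probe signals lay between -6.67 and 7.72 on KO and between -4.67 and 9.40 on WT, under the lowest measured probes of 21.1 and 17.7. The arms miR-19b-1-5p and miR-92a-1-5p belong to chromosome 14 alone, and miR-19b-2-5p and miR-92a-2-5p to chromosome X alone, so the arms that could have told the loci apart gave no level on either array.

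Spot signals were lower towards the last rows of both arrays. In rows 321 to 384 the members' spots stood at a median of 0.366 of their probe's median on KO and 0.219 on WT, and those of all miRNAs measured on both at 0.458 on KO and 0.402 on WT. In rows 21 to 128 the members stood at 1.18 on KO and 1.17 on WT. The members' median difference over spot positions was -1.55 in rows 1 to 20 (8 positions), between -0.94 and -0.89 in the row ranges from 21 to 320, and -0.54 in rows 321 to 384 (23 positions), against 0.13 in rows 1 to 20 and 0.46 in rows 321 to 384 for all miRNAs measured on both. By member, over rows 1 to 128, 129 to 256 and 257 to 384, in that order, the median over positions was -1.23, -1.11 and -1.13 for miR-18a-5p and -0.84, -0.70 and -0.78 for miR-20a-5p. It was -1.12, -1.03 and -0.91 for miR-19b-3p, -1.60, -1.71 and -1.28 for miR-19a-3p, and 0.37, 0.26 and 0.96 for miR-92a-3p. The members other than miR-92a-3p were below 0 and miR-92a-3p above 0 in each of these ranges of rows. On rows 21 to 320 alone, miR-92a-3p was at 0.43 and the other 4 between -1.49 and -0.73. With only the rows above 320 left out, miR-19b-3p was at -0.98 and so within 2-fold.

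**Figure D4:**
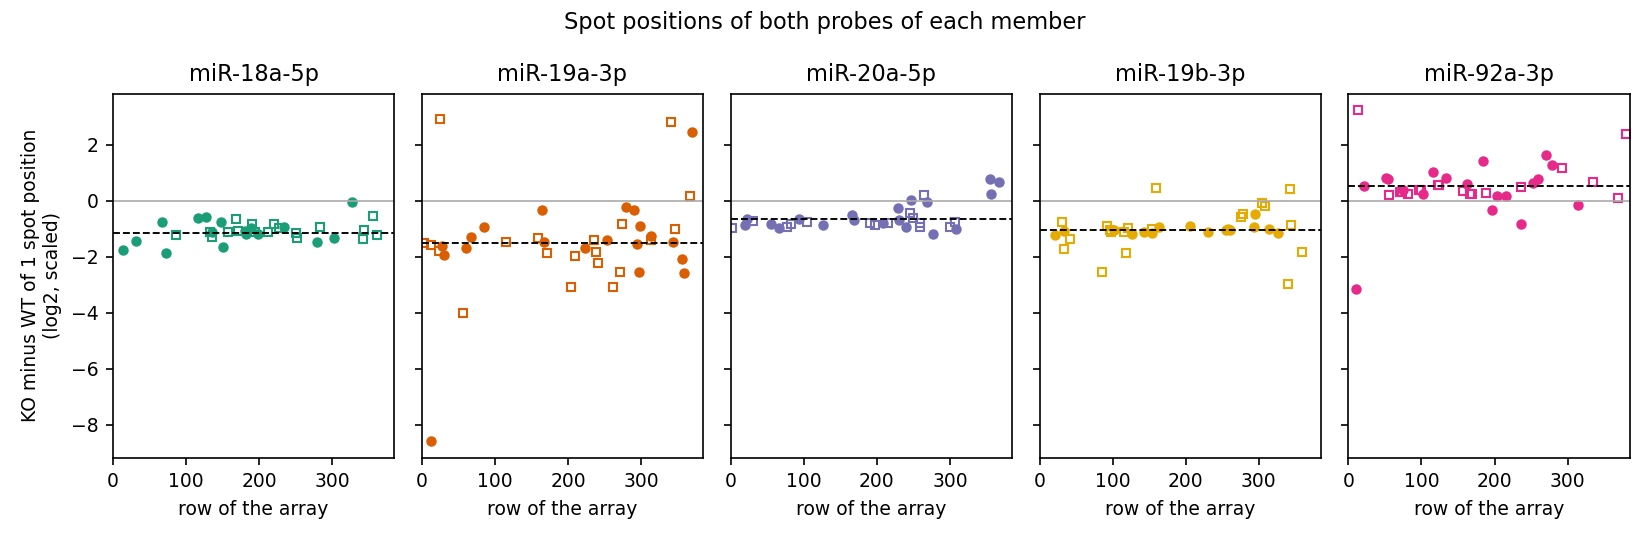
Scaled KO minus WT difference (log2) of each spot position against its row on the array, for both probes (filled and open) of the 5 members; dashed lines are the members' values. Positions of miR-18a-5p lie closely below 0 along the array, those of miR-92a-3p mostly above 0, and single positions near the first and last rows lie far from the rest.

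The scaling factor set the level of all of these values together. The KO array's percentile was 0.437 of the WT array's, and without scaling the differences were -2.37 for miR-18a-5p, -2.69 for miR-19a-3p, -1.86 for miR-20a-5p, -2.24 for miR-19b-3p and -0.68 for miR-92a-3p. By that measure 4 of the 5 members were at least 2-fold lower, against 44.4% of all 72 miRNAs, and 0 were at least 2-fold higher, against 1.39%. Relative to the median miRNA, which the factor cannot move, the differences were -1.48, -1.80, -0.97, -1.35 and 0.21 in the same order. By that measure 3 of the 5 were at least 2-fold lower, against 13.9% of all 72, and 0 at least 2-fold higher, against 8.33%. With limma's normexp background correction, no member reached 2-fold: the count was 0 of 5, against 1.39% of all 72, the lowest was miR-19b-3p at -0.84, and miR-92a-3p was at 0.40. With the array software's gene-level total, 1 member, miR-19a-3p at -1.01, was at least 2-fold lower, against 5.81% of 86 miRNAs.

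**Figure D5:**
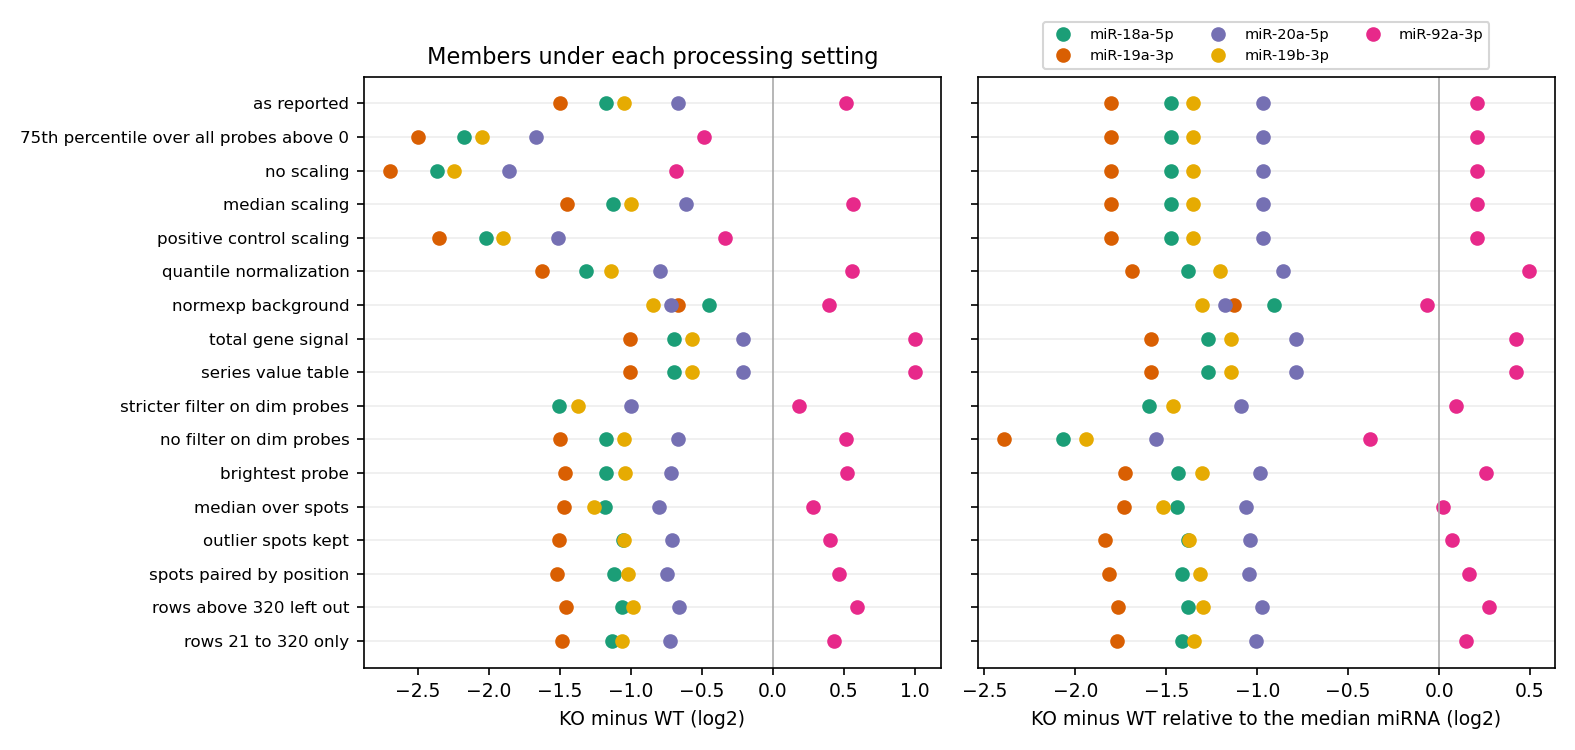
Difference of the 5 members under each processing setting (rows), as KO minus WT (left, log2) and relative to the median miRNA of the same setting (right, log2). miR-92a-3p is the highest of the members in every one of the 17 settings shown, and its side of the median miRNA changes with normexp and with no filter on dim probes.

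Among the 67 other miRNAs measured on both arrays, those whose pair of scaled levels lay nearest to the members' median (-0.076 on KO and 0.80 on WT, log2) were miR-15b-5p, miR-20b-5p and let-7f-5p. The distances over the 2 arrays were 0.64, 0.75 and 1.07 on the log2 scale, and the differences were -0.42 (spot SD 1.06), -0.11 (0.58) and 0.24 (0.47). The levels behind these distances come from different probes, so they describe signals on these arrays and not amounts of miRNA.

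Of the 8 markers of other blood cells on the array, miR-223-3p of granulocytes and monocytes was the one measured on both arrays. It was at 63.6 on KO and 3726 on WT by its brightest probe, a difference of -4.68. Of that list 1 of 2 miRNAs was measured on both arrays, with signals summed over measured probes of 63.6 on KO and 4549 on WT, and miR-223-5p was at -1.42 on KO and -2.20 on WT. This sum and those of the lists below are not scaled. They include probes that only 1 of the arrays measured, so their ratio is not a difference as defined above. Of 7 stem and progenitor markers, 3 were measured on KO and 4 on WT, with summed signals of 423 on KO and 551 on WT. On the difference scale miR-126-3p was at 0.030, miR-130a-3p at 0.95 and miR-196b-5p at 1.16. miR-99a-5p was measured on WT only, with unscaled signals of 12.9 on KO and 31.7 on WT by its brightest probe. Measured on neither array were miR-126-5p (5.79 on KO, 5.33 on WT), miR-125a-5p (20.6 on KO, 2.15 on WT) and miR-125b-5p (13.1 on KO, 18.4 on WT). Of the 2 general blood cell markers, miR-142-3p was at 137 on KO and 658 on WT by its brightest probe, a difference of -1.06, and miR-142-5p was measured on WT only, with summed signals of the list of 218 on KO and 1111 on WT. None of the 4 erythroid, 2 mature lymphocyte, 4 endothelial and stromal or 4 liver and epithelial miRNAs on the array was measured on either array. In RNA of a sorted population, fewer cells of a type and less of a miRNA per cell cannot be told apart, and the part of other cells in the members' differences was not tested.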

How the data were processed

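The authors hybridised Cyanine 3-labelled RNA (100 ng) of 1 KO and 1 WT sample to Agilent miRNA arrays, per the labels' protocols. The deposited array files hold linear spot intensity values. The submitters' processing notes name Feature Extraction 10.7.3. Per the file headers an additive spatial trend was subtracted, further background correction was off, and both arrays share 1 slide and 1 scan. All 1268 rows of the deposited value table equalled the software's total gene signal within 0.1%. Outlier spots were left out (4.59% on KO, 5.16% on WT), and 0 miRNA spots were saturated. For each miRNA the median over probes that both arrays measured was taken. The bound divides the scaled WT signal by the higher of the lowest measured KO signal and the probe's own. With 1 array per genotype no test was made, and the number of arrays limits the precision. Members, relatives, markers and 15 alternatives were chosen with earlier results of these data known, and 1 alternative was added later. Named miRNAs are all members, their paralogs and seed relatives, the nearest 3 other miRNAs and the markers. The procedure was tested on simulated data. Python 3.11.15, numpy 2.4.6, pandas 2.3.3, R 4.3.3 and limma 3.58.1 were used.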

Additional observations from a re-analysis of the deposited data

How the results depend on the processing

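Results were recomputed under 15 alternatives and 1 chosen after seeing the spot signals by row (rows 21 to 320 only). No paired analysis was possible because only 1 array stands for each genotype. The members' median relative to the median miRNA (-1.35 as reported) lay between -1.56 and -1.13, and miR-92a-3p minus the median of the other measured members (1.63 as reported) between 1.09 and 1.78. Other values moved with the scaling. With the percentile taken over all probes, with no scaling and with positive controls, in that order, the median miRNA stood at -0.70, -0.89 and -0.54 (0.30 as reported), the members' median was -2.05, -2.24 and -1.90, the miR-17/20 family -1.66, -1.86 and -1.51, and the miR-18 family -2.17, -2.37 and -2.02. In the same order miR-92a-3p, and with it the miR-92 family, turned to -0.49, -0.68 and -0.33, and the bound of miR-17-3p was 2.97-fold, 3.40-fold and 2.68-fold. The miR-19 family was at -2.27 over all probes and -2.47 without scaling. Agilent's gene-level total and, equally, the value table gave a members' median of -0.57 and miR-18 at -0.70. By these, 1 member was at least 2-fold lower (5.81% of 86 miRNAs). All 5 members stood higher than as reported, with miR-19a-3p at -1.01, miR-20a-5p at -0.21 and miR-92a-3p at 0.999. The median miRNA stood higher too, at 0.58, and the members' median relative to it was -1.14. miR-92a-3p minus the median of the other members stayed at 1.63, so the members moved up together. In these settings the 75th percentile used for scaling was taken over the 86 miRNAs in place of the 113 probes. The part of this change in the shared rise was not tested. With normexp, whose offset of 50 compresses dim probes by construction, miR-18 was at -0.45, 0 members were at least 2-fold lower (1.39% of 72 miRNAs) and miR-17-3p had no bound. With no filter on dim probes 9 members gave a value and the members' median was -0.66; miR-92a-3p then lay -0.38 relative to the median miRNA, against -0.066 with normexp and above 0 otherwise. The stricter filter (90% of spots) left 4 members, without miR-19a-3p. The bound was not recomputed with quantile normalization, the brightest probe, paired spots, the gene-level total, the value table or no filter.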
